A study of Drosophila melanogaster with 2 samples.

Results

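Binding peaks of the Drosophila melanogaster protein CG7556 that lay near a gene start, but outside the promoter itself, were examined in whole embryos. A peak was counted as proximal when its summit, the base of highest enrichment, was 501 to 2000 bp from the nearest transcript start of any coding or non-coding gene, and 1688 of 7184 peaks (23.5%) met this rule on chromosome arms 2L, 2R, 3L, 3R, X and 4 in build dm6. The other peaks were 2915 promoter peaks, within 500 bp of a start (40.6%), and 2581 distal peaks, beyond 2000 bp (35.9%). Chromatin immunoprecipitation followed by sequencing was done with an anti-GFP antibody on embryos of mixed sex, 0 to 24 h old, of a transgenic line that stably carries CG7556 with GFP at its C terminus. One antibody field of the labels names CG7556 in place of GFP. The labels number 2 biological replicates of this 1 group and give no second condition, so no test between groups was possible and no p-value is given. Both replicates came from the same line. The driver of the transgene and the state of the untagged gene were not given in the sources used here, and the control was not analysed here. An embryo collection over this span mixes stages and cell types, and a peak in few cells cannot be told apart from weak binding in many.

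In flies, as in other animals, the core promoter sits at the transcript start, while enhancers are often found within a few kilobases, in particular in the first intron. Many developmental genes have several starts, so that sequence upstream of one start is intron of a longer transcript from another. Nucleosome-free regulatory sequence is the usual place for transcription factors to bind. CG7556 is known only by its gene number in the labels and is described here by its peaks.

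These 6 sequences show base composition around high proximal peaks, 3 upstream and 3 downstream of a start. They are the highest on each side, except that the HmgZ peak, which stood above Lk6, is on an arm whose sequence is not printed. Each sequence is the summit base with 100 bases to either side, on the plus strand of dm6, taken from the RefSeq Release 6 assembly, and the capitals mark runs of 6 or more bases that are only A or T. This marking was chosen after the sequences had been seen.

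cbt peak, chr2L:481001-481201: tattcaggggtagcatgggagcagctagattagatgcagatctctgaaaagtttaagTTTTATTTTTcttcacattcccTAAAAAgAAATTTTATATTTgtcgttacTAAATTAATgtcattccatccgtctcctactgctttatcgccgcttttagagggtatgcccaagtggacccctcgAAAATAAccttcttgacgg
lncRNA:CR44619 peak, chrX:12751227-12751427: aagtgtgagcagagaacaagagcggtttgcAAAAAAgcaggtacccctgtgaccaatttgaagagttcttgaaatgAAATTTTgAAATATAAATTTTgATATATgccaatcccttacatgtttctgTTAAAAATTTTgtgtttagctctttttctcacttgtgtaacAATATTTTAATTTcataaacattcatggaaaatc
Lk6 peak, chr3R:11760947-11761147: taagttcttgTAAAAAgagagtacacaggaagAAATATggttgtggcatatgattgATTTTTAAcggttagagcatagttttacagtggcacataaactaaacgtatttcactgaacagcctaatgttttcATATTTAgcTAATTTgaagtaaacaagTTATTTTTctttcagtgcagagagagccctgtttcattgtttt
CG11050 peak, chr2L:6612604-6612804: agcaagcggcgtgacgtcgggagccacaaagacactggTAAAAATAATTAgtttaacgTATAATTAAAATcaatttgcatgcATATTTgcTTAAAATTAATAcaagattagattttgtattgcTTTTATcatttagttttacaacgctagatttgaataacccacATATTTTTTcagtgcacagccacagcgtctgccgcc
Trl peak, chr3L:14759417-14759617: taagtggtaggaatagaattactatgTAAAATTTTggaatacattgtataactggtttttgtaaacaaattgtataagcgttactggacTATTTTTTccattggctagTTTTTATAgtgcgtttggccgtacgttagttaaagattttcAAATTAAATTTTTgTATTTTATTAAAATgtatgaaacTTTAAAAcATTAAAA
CG32772 peak, chrX:4910266-4910466: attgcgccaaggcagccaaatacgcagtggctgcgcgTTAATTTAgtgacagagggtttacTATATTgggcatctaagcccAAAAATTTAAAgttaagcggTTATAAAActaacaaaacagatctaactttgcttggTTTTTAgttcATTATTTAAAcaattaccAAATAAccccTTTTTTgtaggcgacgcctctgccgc

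In each of the 6 sequences the central 51 bases held less G+C than the bases that lie 200 to 300 bp away on both sides. The difference was wide at the cbt peak, with 23.5% G+C in the centre against 53.5% in the flanks, and at the CG11050 peak, with 23.5% against 51.0%. It was narrow at the Trl peak, with 37.3% against 38%. The Lk6 peak had 35.3% against 40.5%, the CG32772 peak 27.5% against 42.0% and the lncRNA:CR44619 peak 25.5% against 33.0%. At Trl and Lk6 the centre held more G+C than the whole window of 201 bases, which had 24.9% and 32.3%, so the dip was not centred on the summit there.

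Over the proximal peaks as a whole, G+C content was lowest at the summit. Mean G+C content was 32.1% in the 50 bp before the summit and 32.4% in the 50 bp from the summit on, and it rose to 43.8% at 301 to 350 bp before and 44.3% at 300 to 349 bp after it. In windows of 201 bp around the summit the median G+C was 33.3% (quartiles 28.9% and 38.3%), the same median as for promoter peaks and for distal peaks. Regions of the pooled list in the same distance band that were not accepted as peaks and did not overlap one, here called sub-threshold regions, had a median of 37.3%. Non-overlapping 201-bp windows tiling the whole band had a median of 43.8%. Introns are A+T-rich in flies, and the contrast was present within them, with 33.3% for proximal peaks in introns, 37.3% for sub-threshold regions in introns and 39.8% for intron tiles. Replicate 1 alone gave a median of 33.3% and replicate 2 alone 34.3%. A run of at least 12 A or T bases was present in 55.9% of proximal windows, 42.7% of sub-threshold windows and 28.4% of tiles. These values describe proximal peaks and are shared with promoter and distal peaks, so they do not set the proximal peaks apart.

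**Figure D1:**
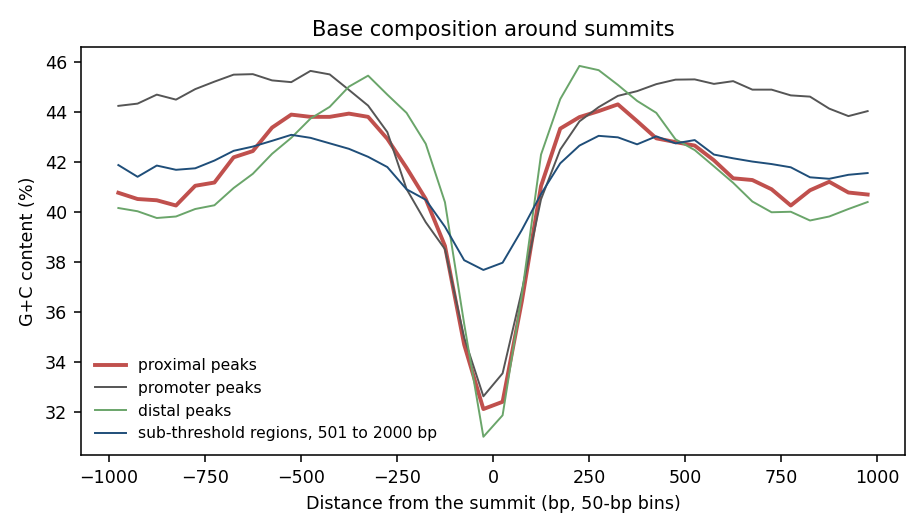
G+C content in 50-bp bins (y axis, percent) against distance from the summit (x axis, bp) for proximal, promoter and distal peaks and for sub-threshold regions 501 to 2000 bp from a start. Lines are means over regions; the proximal line falls to 32.1% next to the summit, and the sub-threshold line has a shallower dip.

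Some known motif words differed in share between the classes, while others were near equal. All 24 motifs were searched as exact words on both strands in the 201-bp windows, and a match is a description of the letters only. The homeodomain core TAATTA was present in 19.8% of proximal windows, 20.1% of promoter windows, 15.4% of sub-threshold windows and 11.8% of tiles. Distal windows had 17.8% and intron tiles 15.3%. TAATTA holds only A and T, and the part of base composition in these shares was not tested. The GAGA element GAGAG, the word bound by GAGA factor, was present in 20.7% of proximal windows, 21.3% of sub-threshold windows and 21.2% of tiles. Around proximal summits GAGAG had 1.24 matches per kb in the 50 bp before the summit. It had 3.84 per kb at 450 to 500 bp before the summit and 2.94 at 450 to 500 bp after it. The 50 bp before promoter and distal summits had 1.40 and 1.05 per kb, and 450 to 500 bp before them it was 2.17 and 2.29. Sub-threshold regions had 1.54 and 1.94 per kb at these places. Nearer the summit the order differed. At 150 to 200 bp before it, proximal peaks had 2.915 per kb, promoter peaks 3.42 and distal peaks 2.26. At 150 to 200 bp after it, they had 3.34, 3.945 and 2.17. The dip at the summit was thus shared by the peak classes, and the part of base composition in it was not tested. The clearest differences from promoter peaks were in words known from housekeeping promoters. The DNA replication-related element TATCGATA was found in 3 proximal windows (0.178%) and in 4.49% of promoter windows, and Motif 1, GGTCACACT, in 0.118% and 1.68%. TATCGATA was found in 0.426% of distal windows, 0.460% of sub-threshold windows and 0.357% of tiles. For Motif 1 these shares were 0.233%, 0.131% and 0.072%. Low shares of both words were thus found outside promoters in general and did not set the proximal peaks apart. The core CGATA of the boundary factor BEAF-32, which TATCGATA contains, was found in 19.3% of proximal windows and 30.4% of promoter windows. Distal windows had 18.95%, sub-threshold windows 21.2% and tiles of the band 21.5%. The AP-1 word TGANTCA was found in 5.51% of proximal windows, 3.60% of promoter windows and 4.22% of tiles. Its share was 5.39% in distal windows, 5.975% in sub-threshold windows and 5.47% in intron tiles, so it did not set the proximal peaks apart from these. Shares scale with the window: GAGAG was found in 9.06% of proximal windows with 50 bp to either side and in 34.2% with 150 bp.

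Words of 6 bases were ranked by their share in proximal over sub-threshold windows on the arms 2L, 2R and X, and the 8 highest were then read on the arms 3L, 3R and 4. Of these, TTATAA was found in 21.7% of the 782 proximal windows on the second set of arms against 14.6% of sub-threshold windows, ACACTG in 13.9% against 9.90% and ACTGTA in 14.3% against 10.7%. GTCTTA went the other way there, with 5.24% against 6.44%. TTATAA holds only A and T, and the part of base composition in its shares was not tested. At least 1 of the 8 words was present in 61.5% of proximal windows, 63.0% of promoter windows, 62.5% of distal windows and 50% of sub-threshold windows on those arms. The sub-threshold windows were those of the proximal band, and the words did not all share this pattern: ACTGTA was found in 10.6% of promoter windows, about its share in sub-threshold windows.

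The proximal peaks lay on both sides of the start. There were 782 upstream (46.3%, exact 95% binomial interval 43.9 to 48.7%) and 906 downstream (53.7%), with 45.4% upstream in replicate 2 alone and 46.5% in replicate 1 alone. Such intervals cover the count of peaks only, and neighbouring peaks are not independent. The sides are not equal in size: of the 32.2 Mb whose nearest start is 501 to 2000 bp away, 12.6 Mb (39.3%) is upstream and 19.5 Mb (60.7%) downstream. Per Mb of such sequence there were 61.9 peaks upstream and 46.4 downstream, against 163 per Mb for promoter peaks and 30.8 for distal peaks. Replicate 1 alone gave 63.9 and 47.6 per Mb and replicate 2 alone 60.9 and 47.5. These densities count all bases of a side. Coding exons were 15.9% of the upstream bases with 3 peaks, and 38.8% of the downstream bases with 2 peaks. Introns had 108 peaks per Mb upstream and 95.3 downstream, and intergenic sequence 58.7 and 53.9, a smaller contrast than over all bases. Non-coding exons had 137 and 77.0 per Mb, with 14 and 44 peaks. The part of coding exons in the contrast between the sides was not tested.

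Within the band, the upstream density was highest next to the promoter. From 501 to 750 bp upstream there were 295 peaks, or 102 per Mb, and the adjoining stretch from 251 to 500 bp upstream, outside the proximal band, had 206 per Mb. In the 5 further upstream bins of 250 bp the density was between 45.9 and 54.9 per Mb, and in the 6 downstream bins between 42.2 and 50.7 per Mb. Without the peaks from 501 to 750 bp, a restriction added after the data had been seen, 49.9 peaks per Mb remained upstream and 45.2 downstream, and 41.2% of the peaks were upstream. Sub-threshold regions had 174 per Mb at 501 to 750 bp upstream, 135 per Mb at 751 to 1000 bp and between 156.5 and 164.8 per Mb in the 4 bins beyond. At the far edge the upstream density went from 54.7 per Mb (84 peaks) at 1751 to 2000 bp to 42.9 per Mb (60 peaks) at 2001 to 2250 bp, and the downstream density from 45.3 to 40.4 per Mb.

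**Figure D2:**
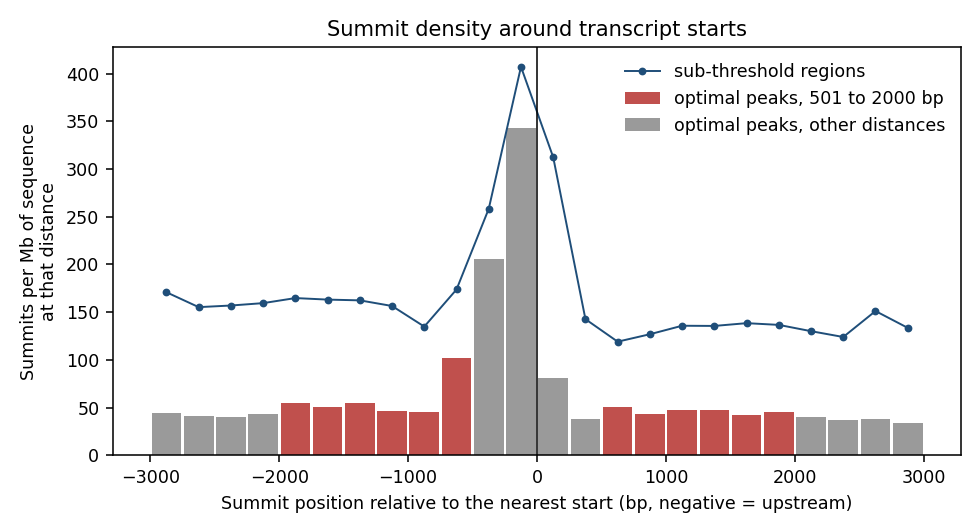
Summits per Mb of sequence (y axis) against signed distance to the nearest start in 250-bp bins (x axis, bp, negative upstream). Red bars are the proximal peaks, grey bars the other optimal peaks and the line the sub-threshold regions; the red bar next to the promoter on the upstream side is at 102 per Mb and the other red bars are between 42.2 and 54.9.

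Proximal peaks were mostly intronic. An intron held 1136 of the 1688 summits (67.3%), while introns make up 35.4% of the bases in the band and held 57.9% of its sub-threshold regions. Exons of all kinds held 131 summits (7.76%) and make up 41.8% of the bases. Coding exons stood lowest: they are 29.8% of the band and held 5 summits (0.296%), or 0.522 per Mb. The 3' UTRs had 14.0 peaks per Mb and the 5' UTRs 48.2 per Mb, with 35 and 33 peaks. Non-coding exons went the other way, with 58 of the 131 exonic summits at 86.1 per Mb. Their upstream value, 137 per Mb, rests on 14 peaks in 0.102 Mb, where sub-threshold regions had 234 per Mb. Intergenic sequence held 421 summits (24.9%), close to its 22.8% of the bases. Base composition moved with these classes, with a median G+C of 52.2% in coding-exon tiles and 39.8% in intron tiles, and its part in the result was not tested.

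Among introns, first introns and introns upstream of the nearest start within the same gene had the highest densities. The first intron of the nearest start held 575 summits, which is 34.1% of all proximal peaks (interval 31.8 to 36.4%) and 63.5% of the downstream ones (interval 60.2 to 66.6%). It is 14.8% of the band's bases, held 29.3% of its sub-threshold regions and had 121 peaks per Mb. Replicate 1 alone had 121 and replicate 2 alone 128 peaks per Mb in first introns. Upstream of the nearest start, 308 peaks were nevertheless inside another intron of the same gene, at 163 per Mb, and 159 and 160 per Mb in the replicates alone. Of these 308, 209 (67.9%) were in a first intron of another transcript. Downstream peaks in a later intron of the nearest gene were fewer, 62 at 41.7 per Mb. Introns of another gene held 191 peaks at 58.3 per Mb, about the density of intergenic sequence, 57.3 per Mb. Counting a first intron of any annotated transcript, 911 peaks (54.0%) lay in one.

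**Figure D3:**
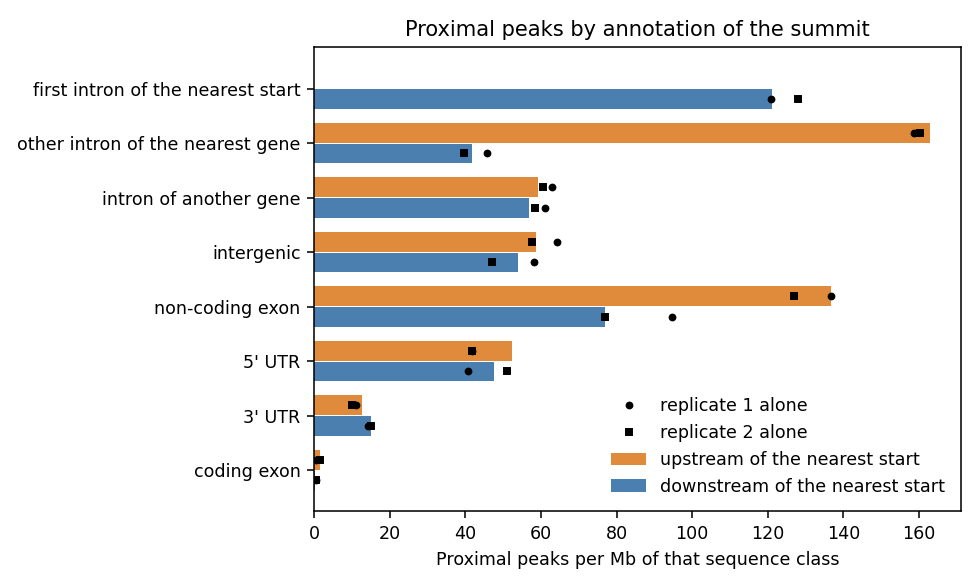
Proximal peaks per Mb of each annotation class of the band (x axis), upstream in orange and downstream in blue; bars are the pooled optimal list and the points are each replicate alone. First introns stand at 121 per Mb, upstream introns of the nearest gene at 163 and coding exons at 0.522 over both sides together.

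The signal is the authors' enrichment value per region, 1 number in a unit the sources do not name, and the pooled list and the replicates are on different scales. Over the proximal peaks the pooled signal ran from 137.1 to 4859, with a median of 248 and quartiles of 180 and 386. The median was 272 for promoter peaks and 223 for distal peaks, so that proximal peaks were between the other classes, at 0.913 times the promoter median and 1.115 times the distal median. Replicate 1 alone gave ratios of 0.902 and 1.115, and replicate 2 alone 0.922 and 1.06. Sides did not separate, with medians of 249 upstream and 248 downstream. First introns had a median of 259, other introns of the nearest gene 251, intergenic sequence 245 and introns of another gene 220, each well within the quartiles of the others. By 250-bp bin, the downstream medians went from 266 next to the promoter through 252, 244, 250 and 241 to 225 at the far edge, and the upstream medians from 267 through 238, 246, 277 and 225 to 222. The quartiles of all these bins overlap.

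The optimal list was the 7184 regions of highest signal among the 30000 of the pooled list, so acceptance as a peak is a matter of signal. Of 6939 pooled regions in the band, 24.3% were accepted, next to 23.9% of pooled regions at all distances, 32.0% near promoters and 18.5% in distal sequence. The proximal share is therefore close to the background. Among the 100 highest peaks of the whole list, 19 were proximal, 67 promoter and 14 distal.

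Most proximal peaks were found in both replicates. The optimal list was made from the same replicates pooled, so agreement at its peaks is partly built in. A summit within 100 bp was found in both replicates for 1602 of the 1688 (94.9%), and 1273 (75.4%) were in the 7184 highest regions of both. The matched share was 93.3% for promoter peaks and 94.9% for distal peaks. At the 1602 peaks the ratio of replicate 1 to replicate 2 had a median of 1.07, and its 5th and 95th percentiles were 0.582 and 1.74. The ratio was above 3 at 17 peaks and below its inverse at 14, and 43 peaks were in the 7184 highest regions of neither replicate. The peak of lowest signal, 137.1, in a 5' UTR of CAP, had no match in replicate 1 and a signal of 88.0 in replicate 2.

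**Figure D4:**
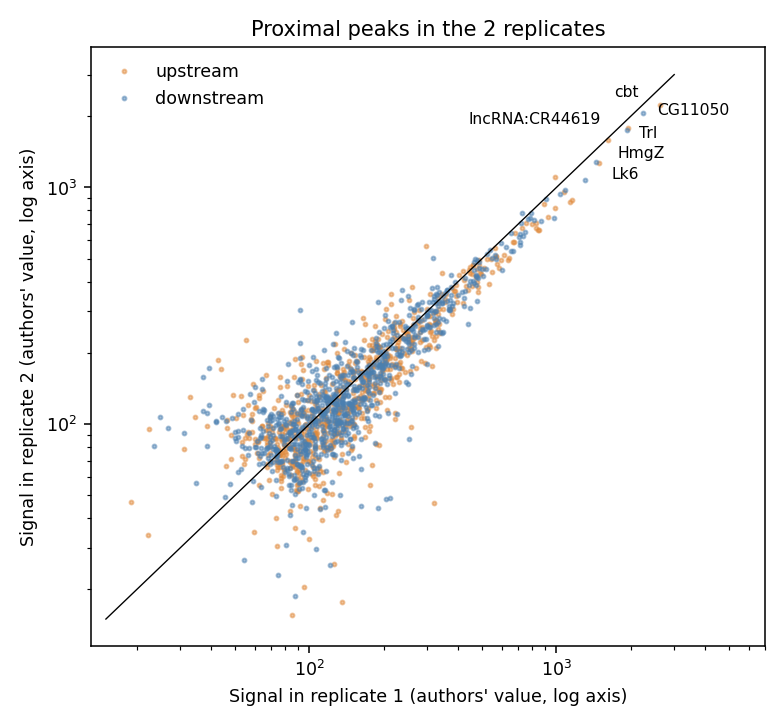
Signal of matched proximal peaks in replicate 1 (x axis, log scale) and replicate 2 (y axis, log scale), upstream in orange and downstream in blue, with the line of equality. The highest peaks lie near the line, cbt first, and the spread widens toward low signal.

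The highest proximal peak was also the highest of the whole list. It lay at chr2L:479614-481568 with its summit 1413 bp upstream of cbt, which encodes a zinc-finger transcription factor, and inside an intron of ush, whose product is a cofactor of GATA factors. Its signal was 4859 in the pooled list, 2637 in replicate 1 and 2239 in replicate 2, first in all 3. The second was at chr2L:6612311-6613048, 1017 bp downstream of a start of CG11050 in an intron, with 4298 pooled, 2247 and 2072. Between the replicates these values differ by less than the 5th to 95th percentile range above.

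The Trl peak, at chr3L:14759145-14760138, lay 1532 bp downstream of the start of the gene for GAGA factor, within an intron, with 3673 pooled and 1935 and 1745 in the replicates. A peak 540 bp upstream of lncRNA:CR44619 on X, in an exon of lncRNA:Vinr, had 3755, 1953 and 1781. They ranked 5 and 4 in the pooled list and in each replicate. The HmgZ peak, 560 bp upstream of a start and within introns of both HmgZ and HmgD, which encode HMG-box chromatin proteins, had 3192, 1618 and 1583. At Lk6, which encodes a kinase that acts on the translation factor eIF4E, the peak 968 bp upstream of one start was inside an intron of the gene, with 2759, 1495 and 1267.

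The first-intron peaks of highest signal belonged to CG32772, CG9663, simj, Baldspot and Adf1. The CG32772 peak, 1264 bp downstream, had 2724 pooled and 1450 and 1279 in the replicates. CG9663, of the ABC transporter family, had 2398, 1301 and 1078 at 941 bp. The simj peak, in the gene for a subunit of the NuRD chromatin remodelling complex, had 2046, 1082 and 974 at 1026 bp. All 3 were higher in replicate 1, as was the median peak. Baldspot, which encodes a fatty acid elongase, had 1788 at 1053 bp, and Adf1, which encodes a transcription factor, had 1596 at 824 bp. The rest of the 12 highest were chif, the fly relative of the replication kinase subunit Dbf4, with 2072 at 960 bp upstream, lncRNA:CR45643 with 2052 at 1252 bp upstream in intergenic sequence, and CG4496 with 2028 at 557 bp upstream. The chif peak went against the others, with 984 in replicate 1 and 1112 in replicate 2.

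The nearest starts belonged to 1229 genes, 974 of them protein-coding and 255 non-coding. That is 6.98% of the 13945 coding genes and 6.45% of the 3951 non-coding genes. The nearest start was coding for 1372 peaks (81.3%) and non-coding for 316 (18.7%), where 17.4% of all start sites are non-coding. A single peak was assigned to 909 genes, 2 to 234 genes and 3 to 59 genes. Coding genes with a proximal peak were long, with a median of 10.2 kb against 2.17 kb for all coding genes, and had 2.23 starts on average against 1.41. Those with a first-intron peak had a median longest first intron of 4.96 kb, against 2.51 kb among the 4066 coding genes with a first intron over 500 bp. A longer gene with more starts has more sequence in the band, and its part in the counts per gene was not tested. At 475 peaks (28.1%) the same nearest start also had a promoter peak, with its summit at most 500 bp away. Of all 23722 start sites, 17.5% had one. The first is a share of peaks, where a start can count more than once, so the shares are not like for like. A start on the opposite strand lay within 2000 bp of 343 peaks (20.3%), so the assignment to 1 gene is uncertain there.

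CG32264 had the most proximal peaks, 8 spread over 5 of its 8 starts, with signals from 137.2 to 583 and a median of 185. CHES-1-like, a forkhead-domain gene, had 7 with signals from 161 to 1398. Tlk, for Tousled-like kinase, also had 7, from 153 to 665, and 4 of them were in first introns. The median was 225 for CHES-1-like and 476 for Tlk, although CHES-1-like had the higher top peak and the ranges of the 7 peaks overlap. The zinc-finger gene shn had 7, from 201 to 1053, SNF4Agamma, for the gamma subunit of AMP-activated kinase, had 7, from 146 to 488, and CG42258 had 6, from 206 to 960. The tie at 6 was broken by summed signal, and psq and shot also had 6.

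The 18 gene lists were chosen with earlier results of these data known, so their shares are not independent of the peaks and are counts alone. In these lists, regulators of signalling and development carried proximal peaks more often than the background of 6.98%. Their median gene lengths were above 2.17 kb in all of these lists but the Notch pathway, with 1.22 kb. In the Dpp pathway, the fly BMP pathway, 8 of 20 genes (40.0%) had a proximal peak, while 10.0% had a promoter summit, that is an optimal one within 500 bp of any of their starts, next to 21.1% of all coding genes. The median length of these genes was 7.34 kb. The brk gene, for a repressor of Dpp targets, had a peak of 1528 (825 and 706 in the replicates) 722 bp upstream, shn, for a factor that works with the Smad proteins, had 1053 (601 and 448) in its first intron, and Mad, for the Smad protein, had 891 (479 and 399) 620 bp upstream of a start.

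Of the tracheal, epidermal and mesoderm regulators 8 of 26 (30.8%) had a proximal peak and 15.4% a promoter summit, with a median length of 18.1 kb. Here bin, a forkhead gene of the visceral mesoderm, had 1327 at 1315 bp upstream and zfh1 had 813 in an intron. In the EGFR and Ras pathway 7 of 22 genes (31.8%) had one, among them Raf, for the kinase below Ras, with 1357 in its 5' UTR, aop, for the ETS-domain repressor Yan, with 534 upstream, and S, for a trafficking factor of the ligand Spitz, with 485 in its first intron. In the Wingless pathway it was 7 of 24 (29.2%), with the receptor gene fz at 1254, the ligand gene Wnt5 at 408 and the kinase gene sgg at 241. In both of these pathways, 40.9% and 25% of genes had a promoter summit.

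The Notch pathway had 4 of 24 genes (16.7%), with E(spl)m2-BFM at 843, E(spl)malpha-BFM at 663 and neur, for the ubiquitin ligase of Delta, at 601. The Hedgehog pathway had 3 of 15 (20.0%): rdx, for an adaptor in the breakdown of the effector Ci, at 404, boi, for a co-receptor, at 255, and dlp, for a glypican, at 162. Among nuclear receptors and ecdysone response genes it was 6 of 24 (25%), with Hr4 at 624, Hr38 at 364 and Hr3 at 355. The Hox and axis patterning genes stood lower, 3 of 26 (11.5%), with bcd at 386, lab at 313 and Antp at 201. Neuroblast regulators had 4 of 28 (14.3%), led by brat at 1073, with fne at 339 and grh at 232, and axon guidance genes 5 of 33 (15.2%), with Ten-a at 485, unc-5 at 320 and sli at 164.

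Insulator and promoter-binding factors had 5 of 20 genes (25%), with psq at 520 and lola at 334 below Trl, and Polycomb, trithorax and remodelling genes 7 of 35 (20.0%), with ph-d at 1994 below HmgZ and simj. Immediate-early, stress and growth regulators had 9 of 27 (33.3%), where Atf3 with 814 and Hsp83, for the chaperone Hsp90, with 728 in its first intron followed cbt. In the last list 66.7% of genes also had a promoter summit. Cell cycle genes had 3 of 25 (12%) and 52.0% with a promoter summit; the highest proximal peak was at 630 for trbl, 369 for Cdk4 and 137.4 for E2f1. The E2f1 peak had 126 in replicate 1 and 25.6 in replicate 2.

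The lowest shares were in lists of short genes. None of 87 cytoplasmic ribosomal protein genes had a proximal peak, while 58 of them (66.7%) had a promoter summit, and their median length was 1.33 kb. Oxidative phosphorylation genes had 4 of 80 (5%) against 21.3% with a promoter summit, with COX7C at 633, COX7AL2 at 564 and UQCR-6.4L at 212. The cuticle proteins had 6 of 95 (6.32%), led by Cpr67Fb at 320, Cpr100A at 272 and Cpr65Az at 223, and the chemosensory families 4 of 230 (1.74%), led by Gr89a at 436, Obp99c at 231 and Gr93a at 226. These shares are near or below the background.

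**Figure D5:**
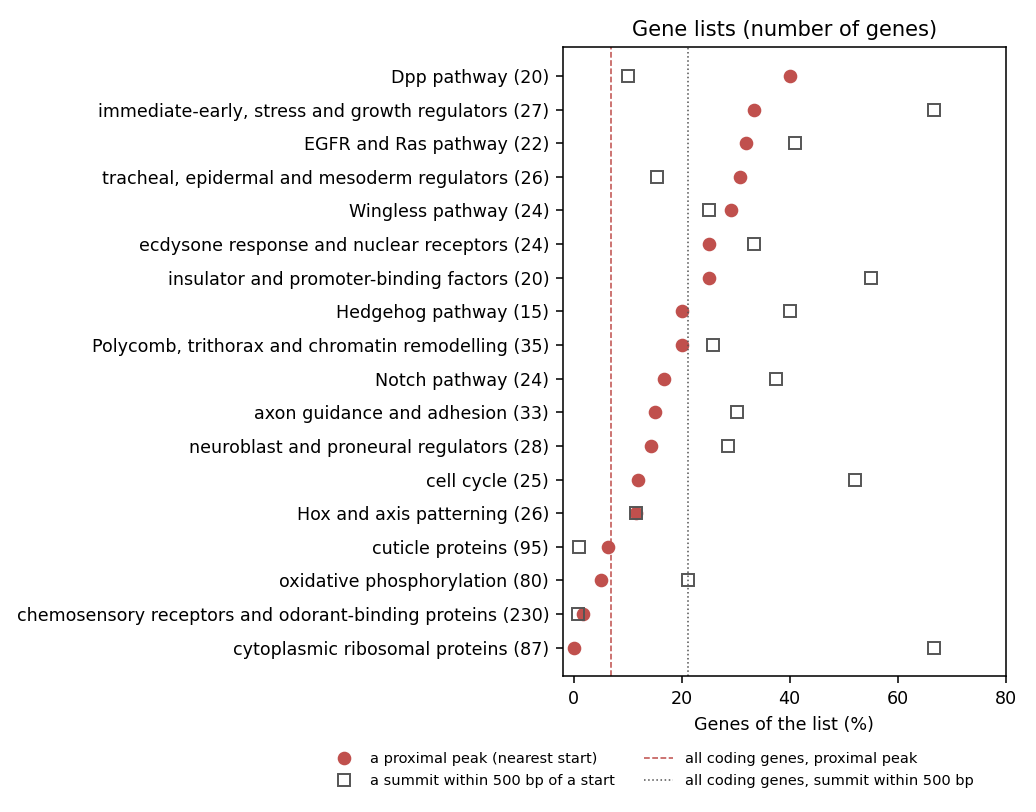
Percent of genes in each list (x axis) with a proximal peak (filled circles) and with a promoter summit, at most 500 bp from a start (open squares); the number of genes follows each name and the dashed and dotted lines are the shares over all coding genes. The Dpp list has 40.0% of genes with a proximal peak and 10.0% with a promoter summit, and the ribosomal protein list has 0% and 66.7%. The lists were chosen with earlier results of these data known.

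Proximal regions had a median width of 497 bp, against 535 bp for promoter peaks and 455 bp for distal peaks. In 520 cases (30.8%) the region shared a merged stretch with another optimal region, and in 126 (7.46%) with a promoter peak. The large arms had between 278 and 395 proximal peaks each and arm 4 had 2, with 42.3 to 50.4% upstream on the large arms. Just inside the near edge, at 501 bp, were E23 with 396 and lncRNA:CR46531 with 204, and just outside it, at 500 bp, were CG31612 with 1199, lncRNA:CR44828 with 521, Tlk with 222.5 and mgl with 179. At the far edge, lncRNA:CR43642 with 154 lay inside at 1999 bp and CG12290 with 347 outside at 2001 bp.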

How the data were processed

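Chromatin immunoprecipitation of GFP-tagged CG7556 was measured in 2 replicates of 1 group. Region lists were made by the authors, per the deposited description files, for each replicate against a control and for both replicates pooled; the optimal list is what passed IDR thresholding. Chromatin was sonicated to 200 to 800 bp, per the labels. The aligner, the peak caller and the cutoff for IDR were not given in the sources used here. Signal as deposited by the authors is 1 value per region, its unit unnamed; no reads are counted in the lists, so depth is unknown. The summit offset deposited by the authors, an other kind of value, is in bp from the region start.

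Here, summits were assigned to starts of Ensembl release 115 genes (BDGP 6.54, dm6 coordinates), without pseudogenes or transposable elements; sequence came from the RefSeq Release 6 assembly. A summit in an exon of any gene was read as exonic, then as intronic in the order first intron of the nearest start, other intron of that gene, intron of another gene, and otherwise as intergenic. Densities divide counts by all bases of the same class and distance. A replicate match is a summit within 100 bp. For each replicate alone, its 7184 highest regions were used. Named genes are those at the 12 highest peaks, the 5 highest on each side and in first introns, the 6 genes with the most peaks, up to 3 per list, and the peaks at the limits of the band. The capitals in the sequences mark A/T runs in place of motif matches. No test was run. Python 3.11.15, numpy 2.4.6, pandas 2.3.3 and scipy 1.17.1 were used, and the assignment was tested on simulated data. The members and lists were chosen with earlier results of these data known. Alternatives were other start sets, midpoints, merged stretches, the upper part of the list, each replicate alone and other windows.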

Additional observations from a re-analysis of the deposited data

How the results depend on the processing

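The number of proximal peaks stayed within 1.5 times of 1688 in each replicate alone (1697 to 1737) and under every alternative but the 3592 peaks of highest signal, which gave 865. The share upstream, 46.3%, was 48.7% with coding starts, 35.6% with the 5'-most start of each gene, 45.2% with 1 summit per merged stretch, 45.4% with midpoints, 49.4% without peaks near an opposite-strand start, 41.2% over 750 bp from the start (added after the data had been seen) and 45.4 to 46.5% in the replicates alone. The first-intron share, 34.1%, was 36.7% among those 3592, 38.6% with coding starts, 38.2% with 5'-most starts, 54.0% counting any transcript and 33.0 to 35.8% in the replicates alone. The median signal, 248, was 382 among those 3592, 256 per stretch and 122 to 130 on the replicates' own scales. Those 3592 were picked by signal, so their smaller count and higher median were fixed in advance. The ratio to promoter peaks, 0.913, was 0.859 among those 3592, 0.946 with 5'-most starts and 0.884 per stretch; that to distal peaks, 1.115, was 1.06 among those 3592 and 1.06 to 1.115 in the replicates. The density upstream was 49.9 per Mb over 750 bp. No ratio crossed 1, and the cause of the shifts in shares, ratios and density was not tested. No paired analysis was possible because there is 1 group. Depth is unknown, so no limit from it can be given.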
